A study of Mus musculus with 4 samples.

Results

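The genes examined here encode the subunits and activators of the proteasome. They were the 42 mouse genes of a fixed list (Psma1 to Psma8, Psmb1 to Psmb10, Psmc1 to Psmc6, Psmd1 to Psmd14 and Psme1 to Psme4), found by their symbol in the platform annotation, with probe sets that carry several gene symbols left out. Of the 42, 41 had at least 1 single-gene probe set, out of 18193 genes with one on the array. Psme2 was listed only at a probe set with several symbols and was not used. Where a gene had several probe sets, the one with the highest mean signal over the 4 arrays was read first. A lead probe set was kept for testing when that mean was at or above the median of all mouse probe sets, a signal of 45.8, and 39 genes passed. Psmb8 and Psmb9 fell below it and are described by their signals alone.

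RNA came from whole testes of C57BL/6J male mice killed at 8 weeks of age, with the tissue snap-frozen. There were 2 arrays from wild type animals and 2 from Taf7l knockout littermates, and no treatment beyond the genotype is recorded. Taf7l encodes a germ cell relative of the general transcription factor subunit Taf7. The labels give neither the design of the Taf7l allele nor the number of animals behind an array, and for knockout replicate 2 the title and the description disagree on the replicate number. The p-values therefore cover only how far arrays of a genotype differ, and that spread may be technical.

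The proteasome is the barrel-shaped protease that degrades proteins tagged with ubiquitin. Its 20S core is made of rings of alpha subunits, which gate the entrance, around rings of beta subunits, of which Psmb5, Psmb6 and Psmb7 carry the active sites. The 19S particle caps the core, binds ubiquitin chains, removes them and unfolds the substrate with a ring of ATPases. Immune cells and cells exposed to interferon replace the active subunits with Psmb8, Psmb9 and Psmb10. The testis is known for a form of its own, with the alpha subunit Psma8 in place of its close relative Psma7 in meiotic and later germ cells. The activator Psme4, also called PA200, is known for its part in histone removal in spermatids.

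On these arrays Taf7l itself had signals of 829 and 818 in wild type and 80.6 and 72.5 in the knockout. Where that probe set lies relative to the altered sequence is not stated. Markers of the labelled tissue were present, with all 12 spermatid markers, all 12 pachytene spermatocyte markers, 13 of 15 Sertoli cell markers and 6 of 9 Leydig cell markers kept. The other Leydig markers (Hsd3b6, Insl3 and Lhcgr) had no single-gene probe set. The arrays of each genotype differed by an SD of 0.21 in log2 signal. Summed signal over spermatid markers was 461757 to 477497 in wild type and 426626 to 437822 in the knockout, and 11 of the 12 were lower, with Cylc1 called by limma (log2 −0.68, adjusted p = 0.047). Sertoli markers summed to 78353 to 80912 in wild type and 95142 to 96954 in the knockout, with Amh and Fshr under the filter and 10 of 13 higher, and Leydig markers to 16538 to 16742 and 20543 to 21008, with 5 of 6 higher. Of the Leydig markers limma called Cyp17a1 (log2 0.34, adjusted p = 0.0496), and of the Sertoli markers it called 0, with the smallest p for Ctsl (0.44, adjusted p = 0.051) and Cst12 (0.25, 0.098). Spermatogonial markers (3 of 6 lower, led by Id4 at −0.41 and Stra8 at 0.23) and those of fat and epididymis (5 of 6 lower, median −0.47, led by Adipoq at −0.61 and Cuzd1 at −1.24) had 0 called. For fat and epididymis wild type replicate 2 stood apart, with a summed signal of 4518 against 1133, 1169 and 1889 on the other arrays, and without it 4 of 6 were higher (median 0.36). Without any 1 array limma called 0 probe sets in all. For actin, the signal at 3′ over that at 5′, which rises as RNA degrades, was 2.09 and 1.999 in wild type and 2.42 and 2.18 in the knockout. For the Gapdh control it ran the other way, at 1.04 and 0.990 in wild type and 0.927 and 0.938 in the knockout. The part of these differences in the values that follow was not tested. In whole tissue, fewer cells of a type and less RNA per cell cannot be told apart.

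None of the measured proteasome genes passed the test between genotypes. With limma and Benjamini-Hochberg adjustment over all 22519 kept probe sets, 0 of 39 lead probe sets had an adjusted p under 0.05, against 1.39% of all kept probe sets. At an unadjusted p under 0.05 there were 15, or 38.5% of the 39, with 3 higher and 12 lower in the knockout. The share was 24.7% over all kept probe sets (6.96% higher and 17.8% lower), and 36.6% over the 7125 genes whose brightest probe set had a mean signal at or above the 75th percentile (318), a range that holds 37 of the 39. At an adjusted p under 0.10 there were 6, Psma7 and Psma8 on the higher side and Psmd3, Psmd9, Psmd10 and Psmd12 on the lower, against 11.7% of all kept probe sets (3.06% higher and 8.61% lower). Of the 7125 bright genes, 233 were higher and 1112 lower at that threshold. Limma called the same 6 proteasome genes at 0.05 with the filter at the 75th percentile, where 21.1% of all probe sets were called. It called 2 with 1 probe set per gene (6.58% of all) and 3 with the mean of a gene's probe sets (7.88%).

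Most proteasome genes were slightly lower in the knockout on the deposited scale, as were other bright genes. Of the 39, 28 were lower and 11 higher, with a median log2 difference of −0.08. Over all kept probe sets the median was −0.05, and over the 7125 bright genes it was −0.10, with 68.1% of them lower. Both knockout arrays lay below both wild type arrays for 20 genes (51.3%), against 36.3% of all kept probe sets and 49.7% of the bright genes. Both lay above for 8 genes (20.5%), against 18.7% and 17.2%. The direction rests on the scaling: after quantile normalization 23 of the 39 were higher and the median was 0.03, with −0.0063 for the bright genes.

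**Figure D1:**
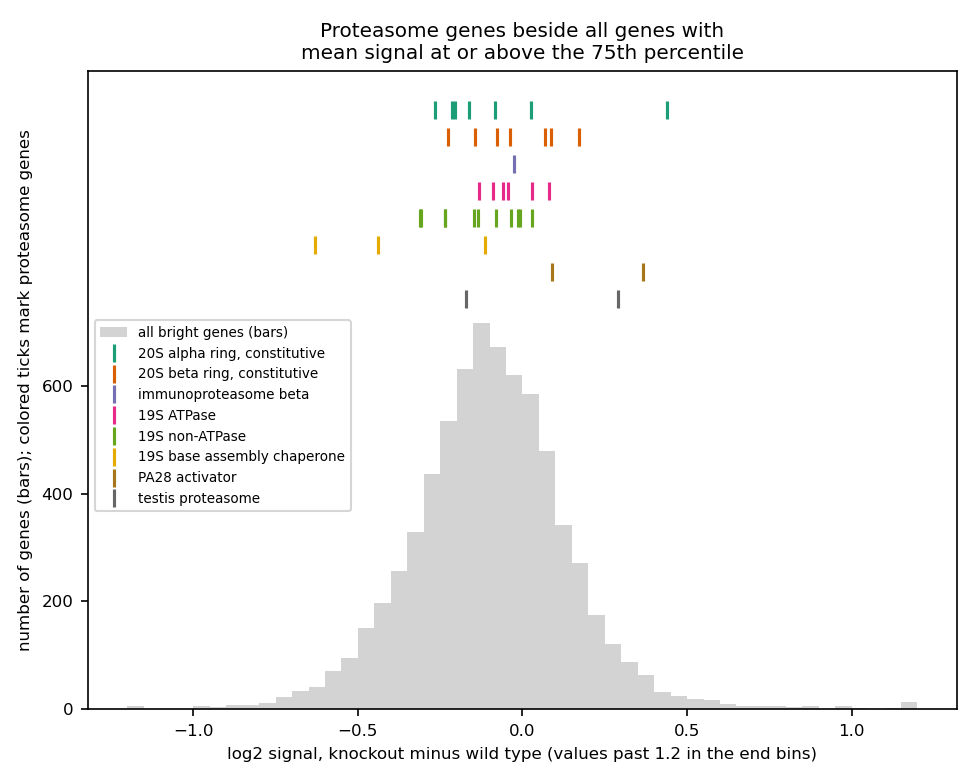
Gray bars count the 7125 genes with mean signal at or above the 75th percentile by their log2 difference in signal, knockout minus wild type, and each colored tick is 1 measured proteasome gene, in a row for its group of subunits. Most ticks lie over the bulk of the bars, with Psmd10 at −0.63 and Psma7 at 0.44 at the ends.

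Promoter stretches are shown for Psmd10, Psmd9, Psma7 and Psme1, the 4 genes with the largest differences among those whose promoter could be printed, so that the start regions of genes on either side of 0 can be compared. Each stretch is the 120 bases before the RefSeq start site on GRCm38.p6, read 5′ to 3′ on the strand of the gene, with capitals for matches on either strand to CCAAT, to the antioxidant response element core TGACNNNGC and to the GC box GGGCGG, which may overlap. Psmd10 lies at chrX:140956712-140956831 on the minus strand, Psmd9 at chr5:123228070-123228189 on the plus strand, Psma7 at chr2:180042465-180042584 on the minus strand and Psme1 at chr14:55578374-55578493 on the plus strand.
Psmd10: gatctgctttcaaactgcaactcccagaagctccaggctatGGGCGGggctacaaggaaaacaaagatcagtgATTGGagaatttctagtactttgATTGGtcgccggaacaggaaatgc
Psmd9: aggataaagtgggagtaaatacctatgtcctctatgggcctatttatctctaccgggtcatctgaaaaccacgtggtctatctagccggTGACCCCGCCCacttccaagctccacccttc
Psma7: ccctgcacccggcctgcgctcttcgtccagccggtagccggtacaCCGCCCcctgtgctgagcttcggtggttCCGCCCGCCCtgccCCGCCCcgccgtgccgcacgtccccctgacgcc
Psme1: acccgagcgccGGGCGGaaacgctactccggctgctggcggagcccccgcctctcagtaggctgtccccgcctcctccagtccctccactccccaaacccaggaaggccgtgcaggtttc

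In these stretches Psmd10 had 2 CCAAT matches and 1 GC box, Psmd9 had 1 match to TGACNNNGC that overlapped a GC box, Psma7 had 4 GC boxes, and Psme1 had 1 GC box. The RefSeq table held 38 promoter windows of 300 bases, 250 before the start and 50 after, for 35 of the 42 genes. Of the 38, 60.5% held GGGCGG on either strand, against 35.7% of all 32851 windows, 34.2% held CCAAT, against 37.4%, and 15.8% held TGACNNNGC, against 12.4%. The 6 genes with TGACNNNGC were Psmb5, Psmb6, Psmc6, Psmd9, Psmd12 and Psme4. All had a negative difference on the deposited scale, where 71.8% of the 39 measured genes and 68.1% of the bright genes were lower. For Psmb5 and Psmc6 the difference turned positive after quantile normalization. A TATAAA box on the strand of the gene, beginning 40 to 20 bases before the start, was in 0 of the 38, against 1.99% of all windows. A match is a description of the letters and not a site of binding.

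The ring of alpha subunits held the gene with the largest positive difference. Psma7, the general alpha subunit whose place Psma8 takes in germ cells, had signals of 1197 and 1302 in wild type and 1661 and 1725 in the knockout. All knockout values were above all wild type values, and the means were 1250 ± 73.8 and 1693 ± 45.2 (SD, n = 2 each), a log2 difference of 0.44 (SE 0.08, limma adjusted p = 0.058). Its other probe set gave 666 and 742 against 990 and 1002, a log2 difference of 0.50 (SE 0.08, limma adjusted p = 0.056), so separate probes saw a similar gap. Of the 7125 bright genes, 1.74% were as far above, and 17.2% had both knockout arrays above both wild type arrays. Both probe sets missed the threshold, and the lead one passed it when 1 probe set per gene was tested (adjusted p = 0.041), with the mean of a gene's probe sets (0.033) and with the filter at the 75th percentile (0.012).

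The other constitutive alpha genes lay lower or near 0. Psma4 had 4466 and 4186 in wild type and 3339 and 3872 in the knockout (log2 −0.27, SE 0.09, limma adjusted p = 0.16). Psma3 (−0.21), Psma1 (−0.20) and Psma6 (−0.16) also had both knockout arrays below both wild type arrays without passing, and the 3 kept probe sets of Psma6 lay between −0.19 and −0.16. That order of the arrays held for 49.7% of the bright genes. Of the bright genes, 21.4% were as far below as Psma4 and 37.4% as far below as Psma6. Psma5 (−0.08) and Psma2 (0.03) overlapped between genotypes. The alpha ring ran from −0.27 to 0.44, with 5 of 7 lower and a median of −0.16, which was −0.08 with 4 of 7 lower after quantile normalization and −0.09 without knockout replicate 1.

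The constitutive beta genes were divided. Psmb6, the caspase-like active subunit, had 7128 and 6910 in wild type and 5733 and 6286 in the knockout (log2 −0.23, SE 0.07, limma adjusted p = 0.12). The trypsin-like subunit Psmb7 differed by −0.15 and the chymotrypsin-like subunit Psmb5 by −0.08, both without overlap of the arrays. Of the subunits with no active site, Psmb3 had 1485 and 1339 against 1570 and 1609 (log2 0.17, SE 0.08, limma adjusted p = 0.26), and its other probe set gave 0.24. Psmb1 (0.07) and Psmb2 (0.09) also had both knockout arrays above, and Psmb4 (−0.04) overlapped. Among the bright genes, both knockout arrays lay below both wild type arrays for 49.7% and above for 17.2%. The median of the 7 beta genes was −0.04, and 0.06 after quantile normalization, when Psmb4 and Psmb5 turned to 0.06 each.

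**Figure D2:**
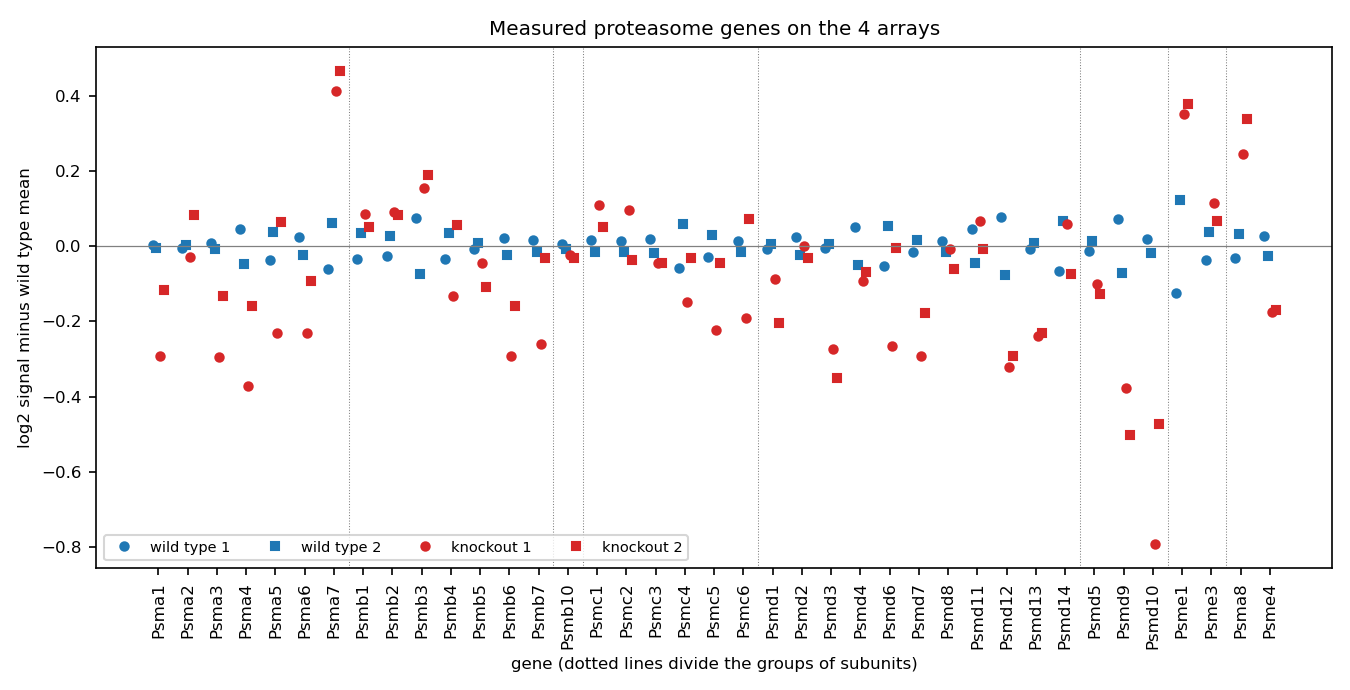
For each of the 39 measured genes, the log2 signal on each array minus the mean of the wild type arrays is plotted, with wild type in blue, knockout in red, circles for replicate 1 and squares for replicate 2. Psma7, Psme1 and Psma8 stand highest in the knockout and Psmd9 and Psmd10 lowest, while for 5 genes (Psma2, Psma5, Psmb4, Psmc2 and Psmc6) the knockout arrays fall on opposite sides of both wild type arrays.

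Transcripts of the immunoproteasome subunits were dim in both genotypes. Psmb8 had signals of 22.8 and 22.7 in wild type and 29.2 and 22.7 in the knockout, and Psmb9 had 19.3 and 19.1 against 19.2 and 19.3. These lie under the 45.8 needed for testing, so no fold is given, and detection calls were not used here. Only Psmb10 was above it, with 141 and 139 in wild type and 138 and 137 in the knockout, a log2 difference of −0.03 (95% interval −0.26 to 0.20, limma adjusted p = 0.89). Of 27 listed genes of antigen processing and the interferon response, 16 were kept, 10 of them higher and 6 lower (median 0.06), with 0 called by limma and 2 at an unadjusted p under 0.05. The 2 with the smallest p were Calr, a chaperone of peptide loading (log2 −0.15, limma adjusted p = 0.16), and Tapbp, which encodes tapasin (0.21, adjusted p = 0.16). Among markers of macrophages and leukocytes 13 of 19 were kept and 12 of these were higher (median 0.13), with summed signal of 25827 to 26770 in wild type and 21833 to 24943 in the knockout. The lower sum came from the brightest of them, Aif1 (log2 −0.26, limma adjusted p = 0.14), with signals of 17044 to 22402. The next brightest, Mrc1, had 1095 to 1304, so the full sum mostly followed 1 gene. Which cells gave the Aif1 signal was not tested. Without Aif1 the markers summed to 4262 to 4368 in wild type and 4789 to 5110 in the knockout. Limma called 0 of them, with the smallest p for H2-Aa (log2 0.70, adjusted p = 0.069) and C1qb (0.31, 0.085), and Ptprc, Cd68, Cd14, Itgam and Cd3e lay under the filter. Their part in the Psmb10 value was not tested.

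Genes of the 19S ATPase ring, which unfolds substrates and opens the gate of the core, lay close to 0. The 6 genes ran from −0.13 (Psmc5) to 0.08 (Psmc1), with a median of −0.05 and 0 at an unadjusted p under 0.05. The narrowest 95% interval, that of Psmc3, ran from −0.16 to 0.07 around −0.04. After quantile normalization all 6 were higher, with a median of 0.04. Psmc2 and Psmb4 were read at probe sets whose suffix marks probes that may match other transcripts. The other Psmc2 probe set gave −0.06 against 0.03, and the other Psmb4 probe set −0.03.

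The non-ATPase subunits of the 19S particle were mostly lower, 10 of 11, with a median of −0.14 that became 0.0027 after quantile normalization. Psmd12, a scaffold subunit of the lid, had 5478 and 4924 in wild type and 4155 and 4240 in the knockout (log2 −0.31, SE 0.07, limma adjusted p = 0.083). Psmd3, also a lid scaffold, had 576 and 579 against 478 and 453 (−0.31, SE 0.08, limma adjusted p = 0.094). In both genes the genotypes did not overlap, and both passed limma's test with the filter at the 75th percentile (adjusted p = 0.028 and 0.044). Of the bright genes, 16.8% were as far below as Psmd12 and 16.1% as far below as Psmd3. Both knockout arrays lay below both wild type arrays for 49.7% of the bright genes. Psmd13 had 1720 and 1739 against 1465 and 1473 (−0.24, adjusted p = 0.10), and its other kept probe sets gave −0.14 and −0.46. Psmd7, the partner of the deubiquitinase Psmd14, differed by −0.23 (adjusted p = 0.13).

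The remaining lid and base genes were closer to 0. Psmd14 itself, which cuts ubiquitin chains from the substrate, had a difference of −0.0074 (95% interval −0.22 to 0.20). Psmd4, a ubiquitin receptor, differed by −0.08, with 0.33 at its dimmest probe set, where wild type replicate 1 stood alone at 92.2 against 155 to 169 on the others. Psmd1 (−0.15), Psmd6 (−0.14), Psmd8 (−0.03) and Psmd2 (−0.02), which build the base and the lid, did not pass either. Psmd11, a lid scaffold and the only non-ATPase gene on the positive side, had 0.03 at its brightest probe set, which also carries the suffix for probes shared between transcripts, and −0.18 at the next.

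**Figure D3:**
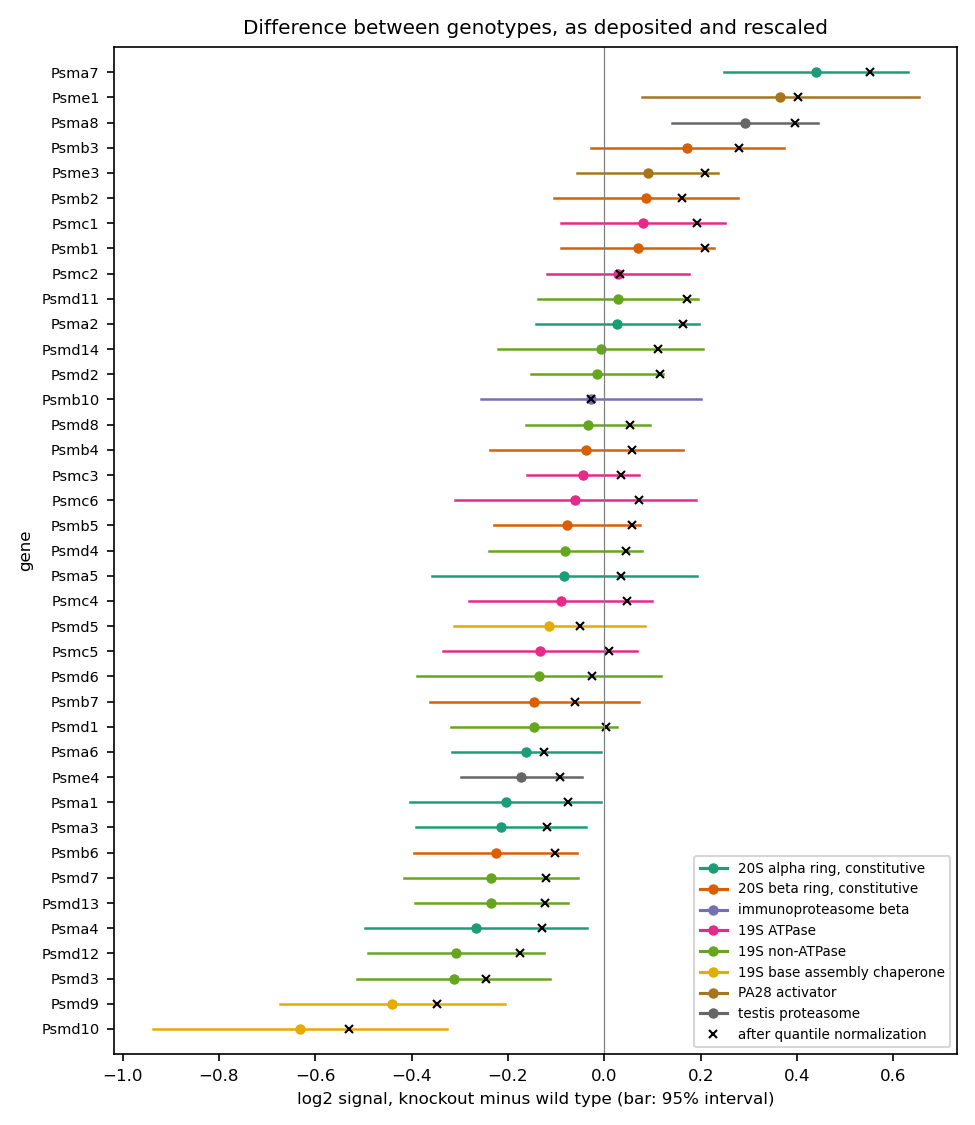
Each row is 1 of the 39 genes, with its log2 difference in signal, knockout minus wild type, as a dot, the 95% interval from limma as a bar and the value after quantile normalization as a cross. Rescaling moves nearly all genes to the right, so that 12 dots left of 0 have a cross to its right, while Psmd9 and Psmd10 stay lowest and Psma7 highest.

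The chaperones that assemble the 19S base had the lowest median of the groups. All 3 were lower at their lead probe sets, with a median of −0.44, and −0.35 after quantile normalization. Both knockout arrays lay below both wild type arrays for all 3, as for 51.3% of the 39 measured genes and 49.7% of the bright genes. Psmd10, the X-linked gene for gankyrin, had 1333 and 1301 in wild type and 761 and 950 in the knockout. The means were 1317 ± 23.1 and 855 ± 134 (SD, n = 2 each), a 1.55-fold lower signal (log2 −0.63, SE 0.12, limma adjusted p = 0.065). Of the bright genes, 1.57% were as far below. The gap rested on 1 probe set, and it ran from −0.79 without knockout replicate 2 to −0.47 without knockout replicate 1. It passed with 1 probe set per gene (adjusted p = 0.045), with the mean of probe sets (0.039) and with the filter at the 75th percentile (0.010).

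Psmd9, a chaperone of the base ATPases, had 935 and 847 in wild type and 685 and 629 in the knockout (log2 −0.44, SE 0.09, limma adjusted p = 0.072), and passed with the filter at the 75th percentile (0.017). Its second kept probe set, with signals of 69.7 to 76.0, differed by −0.06 and overlapped, and the mean of both differed by −0.25. Psmd5, the third chaperone, had 455 and 463 against 428 and 420 (−0.11, adjusted p = 0.43).

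Psma8 and Psme4 differed in opposite directions. Of the bright genes, 4.49% were as far above as Psma8 and 35.5% as far below as Psme4. Both knockout arrays lay above both wild type arrays for 17.2% of the bright genes and below for 49.7%. Psma8 had signals of 7686 and 8027 in wild type and 9309 and 9928 in the knockout, with no overlap. Its means were 7857 ± 241 and 9619 ± 437 (SD, n = 2 each), a 1.22-fold higher signal (log2 0.29, SE 0.06, limma adjusted p = 0.071). Psma8 passed limma's test with the mean of probe sets (adjusted p = 0.045), where 7.88% of all were called. It also passed with the filter at the 75th percentile (0.020), where 21.1% were called. Psma8 has only 1 probe set, so its log2 difference was the same in both settings. Psme4 had 12692 and 12239 against 11047 and 11075 at its brightest probe set (−0.17, SE 0.05, limma adjusted p = 0.12, and −0.09 after quantile normalization). The suffix of this probe set marks probes shared between transcripts. The next 2 by signal gave −0.07 (adjusted p = 0.47) and −0.35 (0.062), all with the knockout below, so the size of the gap depended on the probes read. Its dimmer kept probe sets, with signals of 54.1 to 86.8, overlapped.

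Pachytene spermatocyte markers, from the cells that make Psma8, were lower at 8 of 12 genes (median −0.04), as were 68.1% of the bright genes. After quantile normalization 8 of the 12 markers were higher (median 0.04). Their summed signal was 219893 to 221901 in wild type and 208737 to 213568 in the knockout. Limma called 0 of them, with the smallest p for Hspa2 (log2 −0.35, adjusted p = 0.051) and Ccna1 (−0.48, 0.066). Of the 4 higher markers, Tdrd1 (0.33, limma adjusted p = 0.14) and Hormad1 (0.23, with overlapping arrays) lay furthest above. The part of cell numbers in the Psma8 value was not tested.

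Of the activators of the PA28 family, Psme1, whose product forms a ring with that of Psme2 and is induced by interferon, had 243 and 289 in wild type and 338 and 345 in the knockout. The arrays did not overlap, and the log2 difference was 0.37 (SE 0.11, limma adjusted p = 0.13). Both knockout arrays lay above both wild type arrays at 18.7% of all kept probe sets. Psme3, which encodes the nuclear activator of the family, had 5715 and 6010 against 6340 and 6139 (0.09, adjusted p = 0.40), and its dimmer probe set pointed the other way, at −0.13.

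**Figure D4:**
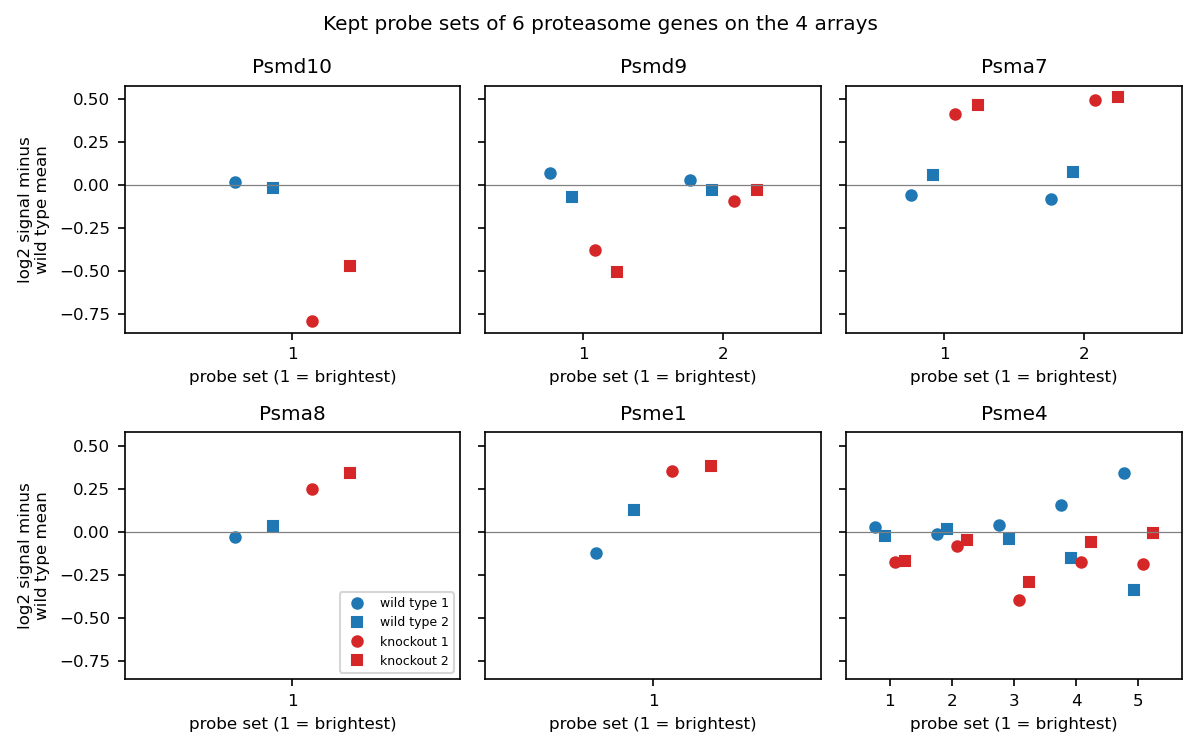
For 6 genes, every kept probe set is plotted as log2 signal on each array minus its own wild type mean, numbered from the brightest, with wild type in blue and knockout in red. The Psma7 probe sets lie at 0.44 and 0.50, whereas those of Psmd9 lie at −0.44 and −0.06, and the 3 brightest of Psme4 range from −0.35 to −0.07.

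The difference between a gene and a chosen partner gene was tested on the log2 ratio within each array, over 5 pairs. Psme3, the partner of Psme4, belongs to the PA28 family and is not a general form of Psme4. The Psma8 to Psma7 ratio differed by −0.15 between knockout and wild type (SD 0.04 and 0.03 within wild type and knockout), although both genes lay higher. Psme4 relative to Psme3 differed by −0.26 (SD 0.09 and 0.04), and by −0.14 with the mean of each gene's probe sets. Psmb10 relative to Psmb7 differed by 0.12 (SD 0.01 and 0.17; 0.03 after quantile normalization), a gap smaller than the spread between the knockout arrays, while Psmb8 and Psmb9 were too dim for their ratios to be read. An exact permutation test, two-sided, of 2 against 2 arrays cannot go below p = 0.333. In this exact permutation test the Psma8 and Psme4 ratios had that value (0.417 after Benjamini-Hochberg adjustment over the 5 pairs) and the Psmb10 ratio had 0.667.

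The knockout arrays also differed from each other. Of the 39 genes, 23 were lower on knockout replicate 1 than on replicate 2 (median log2 −0.03), as were 4141 of the 7125 bright genes (median −0.03). Knockout replicate 1 was the lowest of the 4 arrays for 19 genes and wild type replicate 1 the highest for 15. Psma5 had 5015 and 6161 on the knockout arrays around 5739 and 6039 in wild type, and the lead probe set of Psmd6 had 7858 and 9403 against 9097 and 9802. At these probe sets the genotypes overlapped. The other kept probe set of Psmd6 had 7032 and 7083 in wild type and 5986 and 6168 in the knockout, without overlap (log2 −0.22, SE 0.05, limma adjusted p = 0.087). Both knockout arrays lay below both wild type arrays at 36.3% of all kept probe sets.

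Other genes of the pathway, on a list of 39 that act beside the proteasome in its assembly, regulation and supply of ubiquitinated proteins, were measured at 28. Of these, 21 were lower and 7 higher, with a median of −0.10. The bright genes also had a median of −0.10, with 68.1% of them lower. After quantile normalization 12 of the 28 were higher and 16 lower. Limma called 1 in each direction, against 0.444% of all kept probe sets higher and 0.941% lower. Nfe2l2, the transcription factor of the antioxidant response that is known to raise proteasome genes under oxidative stress, rose from 528 and 513 in wild type to 802 and 852 in the knockout, 1.59-fold (log2 0.67, SE 0.08, limma adjusted p = 0.047). Ddi1, a testis relative of the shuttle protease Ddi2, fell from 14260 and 14292 to 9655 and 10665, 1.41-fold (log2 −0.49, SE 0.06, limma adjusted p = 0.049). Both calls were lost without the variance trend (adjusted p = 0.072 and 0.088), with no filter (0.16 each) and without any 1 array (0.085 to 0.35), and that of Ddi1 also with a robust prior (0.051). Nfe2l1, the factor that restores proteasome genes when the protease is inhibited, had 329 and 393 against 317 and 316 (−0.18, adjusted p = 0.38).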

How the data were processed

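RNA of 4 testis samples was labelled and hybridised to Affymetrix arrays. The deposited table gives 1 linear intensity (probe set signal) per array for 45101 probe sets, 64 of them controls. The authors made these values with MAS5, per the submitters' processing notes, and the version and scaling target are not recorded there. Replicate 2 of both genotypes shared 2385 identical values, against 228 to 620 in the other pairs of arrays. How these arose is not stated.

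Log2 was taken with no offset and no further normalization. Of 34945 probe sets with 1 gene symbol, 34741 were matched by gene identifier to RefSeq of GRCm38.p6, used for names and promoters only. Of all 45037 mouse probe sets, also those with no or several symbols, the 22519 with a mean signal at or above the median were tested. They entered a linear model in R 4.3.3 with limma 3.58.1 (eBayes with a trend), with genotype as the only term and Benjamini-Hochberg adjustment. Intervals are limma's at 95%, and the number of arrays limits precision. The scripts were tested on simulated data.

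The genes, lists and tests were chosen with earlier results of these data known. Every proteasome gene was to be named or counted, and from each other list the called genes, or the 2 with the smallest p. Nfe2l1, Aif1 and the markers under the filter were singled out, and the sum without Aif1 was added, after their values were seen. The alternatives changed the scaling (quantile or median), the offset (16), the filter (none, or the 75th percentile), the variance prior, the threshold and the choice of probe set, blocked on the replicate number, or left out 1 array. A lone array was then assumed to vary like the other genotype.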

Additional observations from a re-analysis of the deposited data

How the results depend on the processing

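The number of proteasome genes called was 0 on the deposited scale and became 6 with the filter at the 75th percentile. At an adjusted p under 0.10 it was 6 (2 higher and 4 lower, against 3.06% and 8.61% of all kept probe sets, and 233 and 1112 of the 7125 bright genes). With 1 probe set per gene it was 2, and with the mean of probe sets it was 3. It was 0 under the other alternatives, and between 0 and 0 without any 1 array. The number of all probe sets called went from 312 (100 higher and 212 lower) to 148 (91 and 57) with quantile normalization, 646 (147 and 499) with median centring, 0 with no filter (6192 at an unadjusted p under 0.05), 2375 (432 and 1943) with the 75th percentile filter, 36 (25 and 11) without a trend, 541 with the replicate block, 2628 at an adjusted p under 0.10, 806 with 1 probe set per gene, 965 with the mean of probe sets, and 0 without any 1 array (3084 to 5500 at an unadjusted p under 0.05). The median of the 39 genes moved from −0.08 to 0.034 with quantile normalization. Quantile normalization also turned the sign of Psma5 (0.034), Psmb4 (0.058), Psmb5 (0.058), Psmc3 (0.034), Psmc4 (0.047), Psmc5 (0.010), Psmc6 (0.071), Psmd1 (0.0027), Psmd2 (0.12), Psmd4 (0.045), Psmd8 (0.053) and Psmd14 (0.11). The mean of probe sets turned Psmc2 (−0.014), Psmd4 (0.062), Psmd11 (−0.0082) and Psme3 (−0.017). Leaving out 1 array let Psma2 range from −0.029 to 0.083, Psma5 from −0.23 to 0.065, Psmb4 from −0.13 to 0.057, Psmc2 from −0.037 to 0.095, Psmc6 from −0.19 to 0.071, Psmd2 from −0.039 to 0.0088, Psmd11 from −0.016 to 0.073 and Psmd14 from −0.073 to 0.059. No other gene of the 39 changed sign under an alternative that was run. Among genes with an unadjusted p under 0.05, quantile normalization brought Psma1 to −0.08, Psma3 to −0.12, Psma4 to −0.13, Psmb6 to −0.10, Psmd7 to −0.12, Psmd12 to −0.18, Psmd13 to −0.12 and Psme4 to −0.09. Without knockout replicate 1, Psma1, Psma3, Psma4 and Psma6 were at −0.12, −0.13, −0.16 and −0.09, and without wild type replicate 1 Psme1 was at 0.24. The cause of these changes was not tested. Same-numbered arrays of the genotypes did not deviate together (r = 0.03 across the kept probe sets, which are not independent), so the numbers were not taken as pairs, and the replicate block left 0 proteasome genes called. Signals near or under the filter limit what can be said of Psmb8, Psmb9 and Psmb10.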
